A study of Mus musculus with 9 samples.

Results

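Livers of mice with the STAM form of diabetic fatty liver disease were compared with livers of untreated mice on chow. The comparison used 6 of the 9 samples of the series, 3 STAM and 3 chow, and the groups were taken from the sample titles. All were male mice (strain and genotype not given in the sources used here), and RNA came from the left lobe of the frozen liver. STAM mice had received 200 µg of streptozotocin under the skin at 2 days of age and were then fed a high-fat diet from 4 weeks of age for 4 weeks. Chow mice received neither streptozotocin nor the high-fat diet, and neither group received Atglistatin, an inhibitor of adipose triglyceride lipase that was given to the remaining 3 samples. Since the STAM livers differed from the chow livers in both the toxin and the diet, the parts of the toxin and of the diet cannot be told apart. The treatment field of the sample records goes against the titles and the series design (it lists streptozotocin for the chow samples) and was not used. The sources used here do not state that each library is 1 animal, so the p-values measure the spread between these samples.

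Streptozotocin is taken up by the insulin-producing beta cells of the pancreas and destroys many of them, so that a mouse treated as a newborn grows up short of insulin. On a high-fat diet such a mouse stores fat in the liver and can go on to develop inflammation there. The healthy hepatocyte makes most plasma proteins, takes up and releases glucose under the control of insulin and glucagon, and sends out fat in lipoproteins. It also stores iron, breaks down amino acids and clears drugs and steroids with cytochrome P450 enzymes and conjugating enzymes.

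Expression was read with a 3′ tag protocol, QuantSeq, in which each polyadenylated transcript gives reads near its 3′ end. The deposited gene counts summed to between 7380365 (chow replicate 9) and 9408293 (chow replicate 7) in the 6 libraries, and the 7 ribosomal RNA entries, which were left out, had taken between 0.268% and 0.529%. Of 55401 genes in the table, 20630 had at least 1 count in some library and 12660 passed the filter on low counts and were tested. Levels are given as CPM, a gene's counts scaled to a fixed library total, with TMM scaling, always in the order chow replicates 7, 8 and 9, then STAM replicates 1, 2 and 3. CPM of a 3′ tag library compare 1 gene between samples and were not used to compare genes with each other. A gene is said to have risen or fallen where its adjusted p in edgeR's quasi-likelihood test was under 0.05.

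Chow replicate 7 stood apart from chow replicates 8 and 9. The growth-arrest gene Cdkn1a, also known as p21, stood at 50.4, 2.89 and 6.35 CPM in chow and 22.1, 20.4 and 30.0 CPM in STAM. The metal-binding metallothionein Mt1 stood at 157, 22.5 and 21.7 CPM in chow and 79.2, 99.3 and 58.2 CPM in STAM. G6pc, the enzyme that releases free glucose from the liver, stood at 227, 865 and 1023 CPM in chow and 633, 620.2 and 673 CPM in STAM, so that here chow replicate 7 was the low one. Without chow replicate 7 the number of genes called between STAM and chow went from 499 to 724, and the 3 genes were then called (adjusted p = 2.15e-06, 3.02e-05 and 0.0114 in edgeR's test). Unless a sentence says otherwise, each gene given below with a change on the log2 scale kept its direction and its call in each of the 6 fits that left out 1 library and under each of the 6 other settings of the scaling, the filter, the tool or the samples fitted.

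The defining markers of hepatocytes were present in all 6 libraries, and their summed level was 110200, 121800 and 123000 CPM in chow and 61210, 68640 and 72810 CPM in STAM. Of the 10 hepatocyte markers tested, 5 fell (Alb, Apoa1, Ttr, Trf and Fgb), while Apob, Asgr1, Hnf4a, Cps1 and Serpina1c were not called. The change was negative in 8 of the 10 and positive in 2. Alb had 1486224 counts over the chow libraries and 759495 over the STAM libraries, and so weighed heavily in the sum. Apob had 17147 and 20770 counts, Asgr1 29377 and 35643, and Hnf4a 8133 and 7174. In bulk tissue, fewer cells of a type and less RNA per cell cannot be told apart. Summed markers of the other resident cells overlapped between the groups for Kupffer cells, which are the liver's own macrophages (508.5 to 592 CPM in chow, 518 to 604 CPM in STAM), for stellate cells and fibroblasts (604 to 958 CPM, 509 to 701 CPM), for bile duct cells (51.7 to 78.9 CPM, 59.5 to 69.3 CPM) and for recruited macrophages (107 to 198 CPM, 110 to 150 CPM). The highest of the chow values for each of these 4 lists was that of chow replicate 7. Sinusoidal endothelial markers summed to 522 to 571 CPM in chow and to 489 to 513 CPM in STAM. Of the 13 tested, 0 fell and 1 rose, Lyve1, with 475 counts over the chow libraries and 914 over the STAM libraries. The call of Lyve1 was lost without any 1 library other than chow replicate 9 and in the fit of the 2 groups alone. Red blood cell markers, mostly hemoglobin genes, summed to 1022, 800.5 and 709 CPM in chow and to 685, 763 and 663 CPM in STAM, with chow replicate 7 the highest and the groups overlapping. Of the 6 tested, 0 rose and 0 fell by edgeR, with 0 higher and 2 lower at an unadjusted p under 0.05, while DESeq2 called 0 and limma-voom 1 lower. All marker sums in CPM cover only the markers that passed the filter on low counts. The 3 of 11 neutrophil markers that passed summed to at most 8.52 CPM in any of the 6 libraries. The 4 of 13 T and NK cell markers that passed summed to at most 9.01 CPM. Over all listed markers a library held at most 100 neutrophil counts and at most 108 T and NK cell counts. Ly6g, a defining neutrophil marker that did not pass, had 0 counts in each library.

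Adipocyte markers summed to 509 to 586 CPM in chow and to 738 to 788 CPM in STAM, and 3 of the 7 tested (Cfd, Cidea and Cidec) rose. The count was 5 without chow replicate 7 and 2 without any other 1 library, since the call of Cidec was lost in those 5 fits, by DESeq2 and in the fit of the 2 groups alone. Genes that define fat cells were close to 0. Leptin (Lep), resistin (Retn) and Acvr1c had 0 counts in each library, and adiponectin (Adipoq) had 24, 0 and 3 counts in chow and 1, 0 and 2 counts in STAM. The part of fat tissue in the results was not tested beyond these counts. Gut epithelium markers summed to 127 to 142 CPM in chow and to 254 to 256 CPM in STAM. That sum was almost all Fabp2, a fatty acid binding protein known from the intestine, while Cdx2, Muc2, Cdh17 and Sis, which define gut epithelium, had 0 counts in each library. Fabp2 stood at 124, 139 and 139 CPM in chow and 245, 251 and 245 CPM in STAM and rose by 0.89 ± 0.11 (SE) on the log2 scale (edgeR adjusted p = 8.4e-05).

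**Figure D1:**
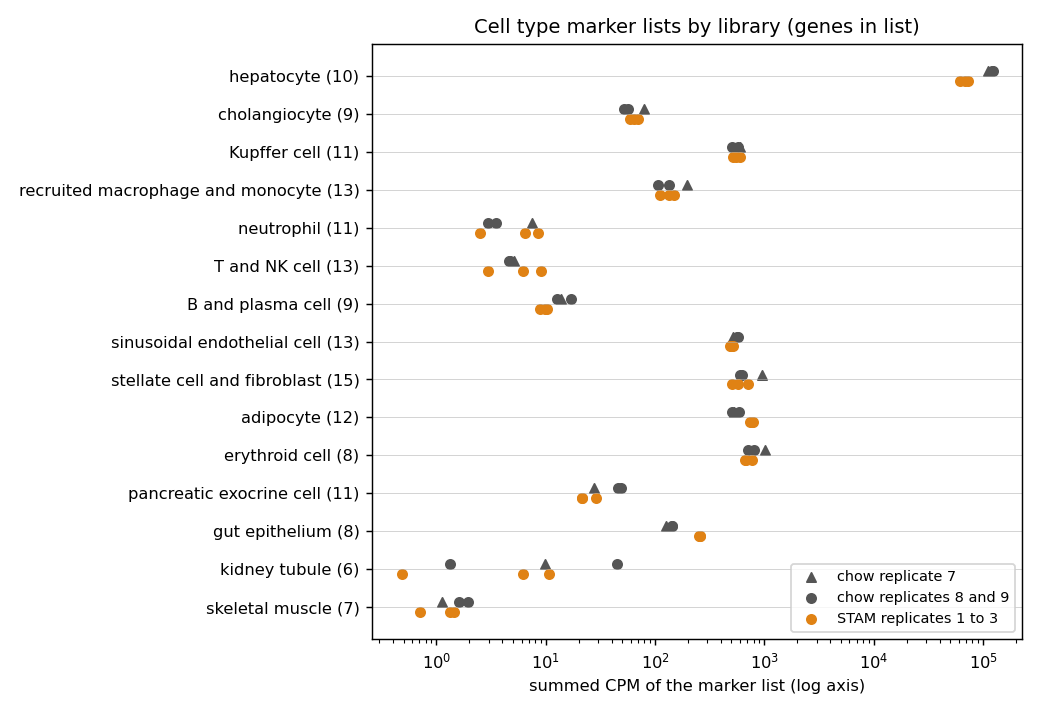
Summed CPM of the tested markers of each cell type on a log axis, 1 point per library, with chow replicate 7 as a triangle. The number in brackets counts the listed markers found in the data, tested or not. Hepatocyte markers lay lower in each STAM library (61210 to 72810 CPM) than in each chow library (110200 to 123000 CPM), while Kupffer cell, stellate cell and bile duct markers overlapped.

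Of the 12660 genes tested, 499 (3.94%) were called, 247 higher in STAM (1.95%) and 252 lower (1.99%). The count was 291 without STAM replicate 1, 312 without STAM replicate 2 and 724 without chow replicate 7, and 236 genes kept their call in each of the 6 fits without 1 library. With scaling to library totals in place of TMM, 347 were called higher and 205 lower, and the median of all genes moved by less than 0.1 on the log2 scale. In 492 of the 499 called genes the 3 STAM libraries lay wholly above or wholly below the 3 chow libraries, against 20.7% of all tested genes. Among the called genes 121 rose and 109 fell by at least 1 on the log2 scale. The called genes that fell made up 18.8% ± 0.141 (SD, n = 3) of the CPM in chow and 10.5% ± 0.391 in STAM, while those that rose made up 5.65% ± 0.342 in chow and 9.55% ± 0.304 in STAM. These shares describe genes chosen by the test and carry no test of their own.

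**Figure D2:**
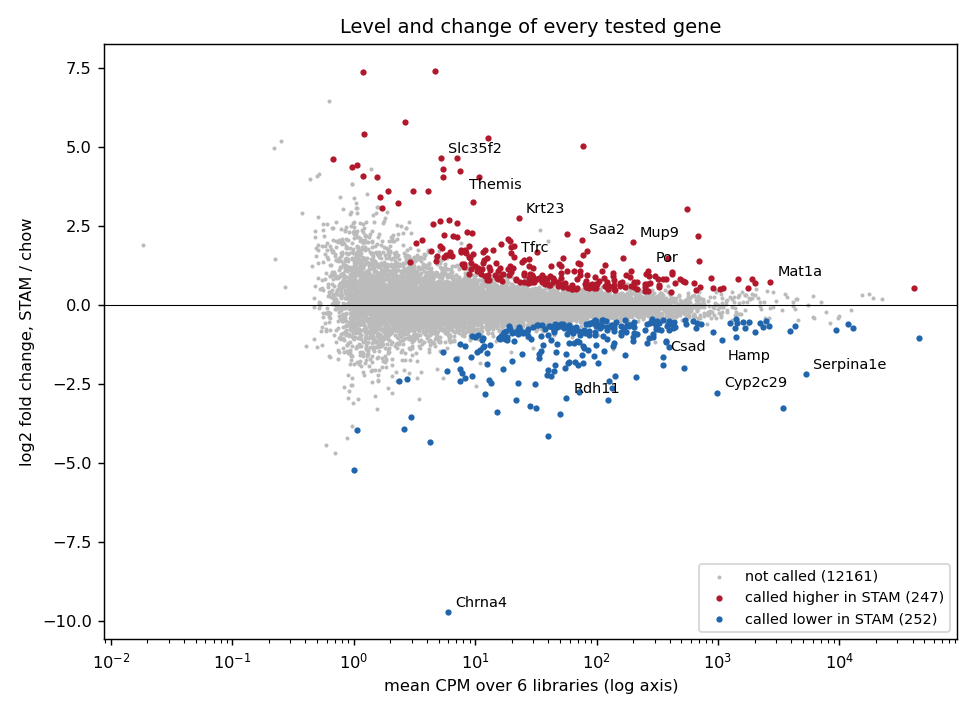
Log2 fold change (STAM over chow) of each tested gene against its mean CPM over the 6 libraries on a log axis, with 247 genes called higher in red and 252 called lower in blue. Several abundant genes lay on the lower side, among them Serpina1e and Cyp2c29, and the value plotted for Chrna4, which had no counts in STAM, depends on the fit's prior count.

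Many called genes belonged to known functions of the liver. Of 1170 tested genes that belonged to at least 1 of the functional groups, 188 (16.1%) were called, against 3.94% of all tested genes. The groups were drawn up with earlier results of these data known, so these shares describe and are no evidence of their own. Groups whose called members mostly fell included plasma carriers, clotting factors, carboxylesterases and lipoprotein genes. Groups whose called members all rose included acyl-CoA thioesterases, ketone body synthesis, lipid droplet coat, peroxisomal genes and the oxidation of branched-chain amino acids.

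**Figure D3:**
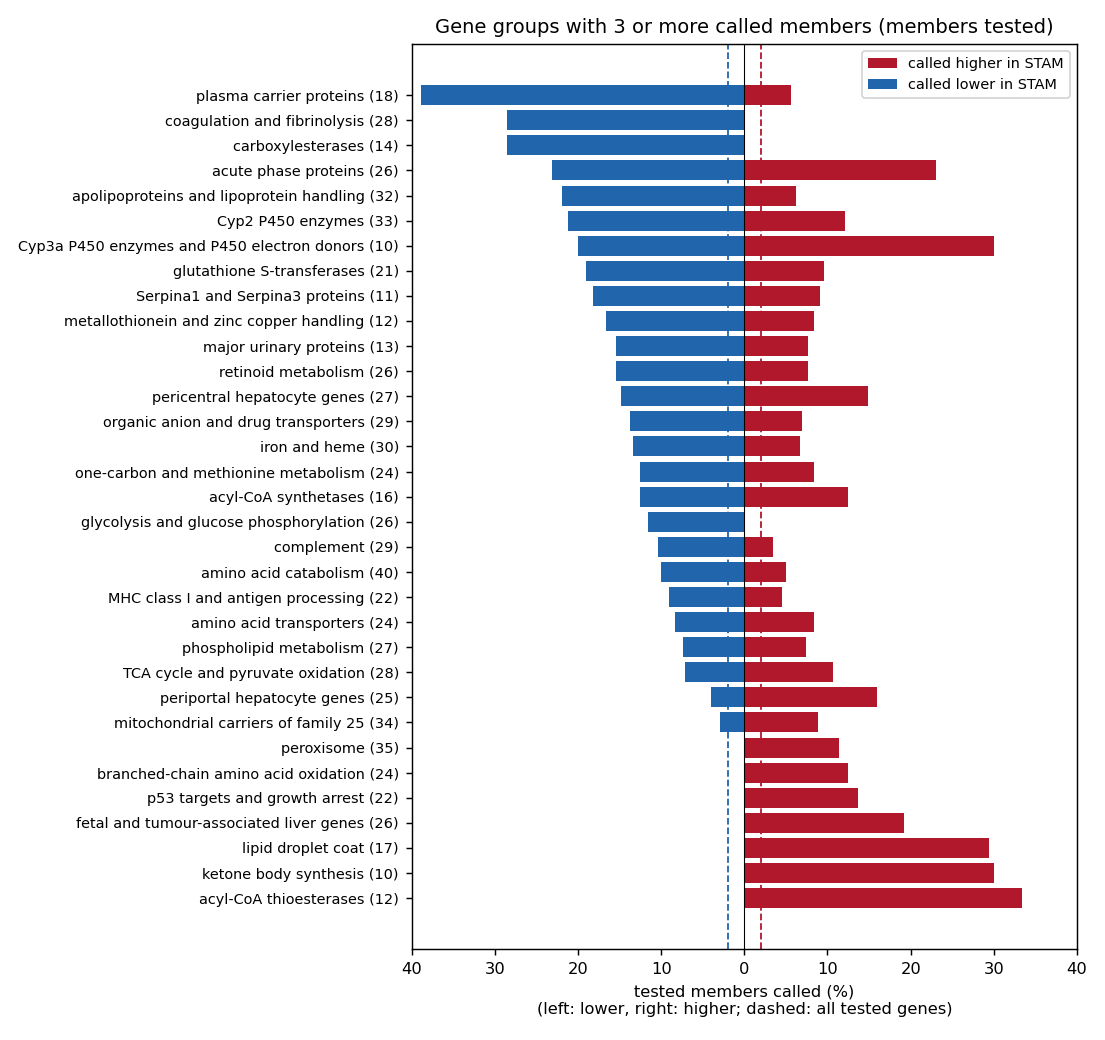
Percent of the tested members of each functional group that were called higher (right, red) or lower (left, blue) in STAM, for groups with at least 3 called members, with the number tested in brackets. Dashed lines give the share over all tested genes, 1.95% higher and 1.99% lower. Acyl-CoA thioesterases stood at the far right with 4 of 12 and plasma carriers at the far left with 7 of 18.

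Some genes of glucose use fell. Of 26 glycolytic genes tested, 3 fell (11.5%, against 1.99% over all tested genes) and 0 rose. The median change was -0.0563 against -0.00144 over all genes. Pklr, liver pyruvate kinase, stood at 118, 212 and 201 CPM in chow and 108, 96.9 and 94.3 CPM in STAM and Aldoc, an aldolase, at 24.1, 22.7 and 21.4 CPM in chow and 12.3, 12.6 and 13.9 CPM in STAM. In both the groups did not overlap, but the call was lost without chow replicate 8, without chow replicate 9, without STAM replicate 2 or without STAM replicate 3, after which the count was 1, and that of Aldoc also without chow replicate 7 or STAM replicate 1 and with scaling to library totals. Me1, malic enzyme, a source of NADPH for fat synthesis, stood at 105, 165 and 181 CPM in chow and 75.4, 73.3 and 82 CPM in STAM and fell by 0.97 ± 0.17 (SE) on the log2 scale (edgeR adjusted p = 0.00256).

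On the glucose-producing side 2 of 16 genes rose, 1 without STAM replicate 3 or chow replicate 8 and 0 without STAM replicate 1 or 2. Fbp1, fructose bisphosphatase, a step unique to gluconeogenesis, stood at 787, 975 and 910.3 CPM in chow and 1272, 1341 and 1291 CPM in STAM, and Got1, a cytosolic aminotransferase, at 237, 154 and 209 CPM in chow and 292, 313 and 286 CPM in STAM. Each STAM library was above each chow library in both genes. The call of Fbp1 was lost without STAM replicate 1 or 2 (adjusted p = 0.0558 and 0.0765 in edgeR's test), and that of Got1 without any 1 library other than chow replicate 7. The 2 best-known genes of the pathway were not called: Pck1 stood at 1318, 1989 and 3166 CPM in chow and 3106, 2690 and 2990 CPM in STAM, with the STAM libraries inside the chow range, and was called higher only without chow replicate 9 or without the filter on low counts (adjusted p = 0.00955 and 0.0127 in edgeR's test). G6pc is given above. Gys2, liver glycogen synthase, stood at 72.2, 112 and 119 CPM in chow and 174, 185 and 164 CPM in STAM, without overlap, and lost its call without STAM replicate 2 (adjusted p = 0.0525 in edgeR's test).

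Genes of insulin signalling gave no call. Of 22 tested, 0 rose and 0 fell by edgeR, with 1 and 3 at an unadjusted p under 0.05. DESeq2 called 1 higher and 0 lower, and limma-voom 1 and 1. Irs2, the insulin receptor substrate whose transcript insulin lowers, stood at 21, 38 and 80.5 CPM in chow and 67.6, 56.3 and 44 CPM in STAM, so the groups overlapped, and was called higher only without chow replicate 9 (adjusted p = 0.0446 in edgeR's test). Igfbp1, another transcript lowered by insulin, stood at 348, 188 and 767 CPM in chow and 462, 431 and 374 CPM in STAM and overlapped as well. These values do not show that insulin signalling was alike in the groups, since the counts report transcripts only.

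Some genes that hydrolyse acyl-CoA rose. Acyl-CoA thioesterases split acyl-CoA into free fatty acid and coenzyme A, and 4 of 12 tested rose, with a median change of 0.697 over the 12 against -0.00144 over all genes. Acot1, the cytosolic member, stood at 29.9, 34.6 and 26.9 CPM in chow and 65, 62.2 and 88.1 CPM in STAM, with no overlap, and rose by 1.24 ± 0.17 (SE) on the log2 scale (edgeR adjusted p = 0.000153). Acot4 and Acot3, peroxisomal members next to it on chromosome 12, rose by 1.32 ± 0.21 (SE) on the log2 scale (edgeR adjusted p = 0.0008) and by 1.93 ± 0.32 (SE) on the log2 scale (edgeR adjusted p = 0.00105). These genes are close copies of each other, and reads may be split between them. Acot2, the mitochondrial member, stood at 76.8, 21.3 and 16.6 CPM in chow and 122, 113 and 114 CPM in STAM. In Acot2 chow replicate 7 lay well above the other chow libraries, and the call was lost without STAM replicate 1 or 2 or chow replicate 8 or 9, and by DESeq2.

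Some genes of fatty acid entry into mitochondria and of oxidation in peroxisomes also rose. Cpt1a, which passes long-chain fatty acids into mitochondria, stood at 208, 230.4 and 250.0 CPM in chow and 404, 423 and 390.5 CPM in STAM and rose by 0.82 ± 0.12 (SE) on the log2 scale (edgeR adjusted p = 0.00026). Among 35 peroxisomal genes 4 rose. Pex11a, which drives the division of peroxisomes, stood at 191, 210.1 and 217 CPM in chow and 379, 329.8 and 473 CPM in STAM and rose by 0.93 ± 0.15 (SE) on the log2 scale (edgeR adjusted p = 0.00101), and Decr2, which prepares unsaturated fatty acids for peroxisomal oxidation, rose by 0.74 ± 0.14 (SE) on the log2 scale (edgeR adjusted p = 0.0029). Each STAM library was above each chow library in both. Acaa1b, a thiolase of peroxisomal oxidation, stood at 1250, 1574 and 1310 CPM in chow and 2327, 2085 and 2990 CPM in STAM and rose by 0.84 ± 0.14 (SE) on the log2 scale (edgeR adjusted p = 0.00106). Cyp4a31, a fatty acid hydroxylase of microsomes, stood at 10.6, 5.79 and 10.5 CPM in chow and 39, 22.2 and 37.7 CPM in STAM and rose by 1.88 ± 0.27 (SE) on the log2 scale (edgeR adjusted p = 0.000357). Other genes of its family lie close to it on chromosome 4, and reads may be split between them. Hsd17b11, an enzyme that sits on lipid droplets, stood at 249.5, 307 and 246 CPM in chow and 479, 479.6 and 467 CPM in STAM and rose by 0.83 ± 0.12 (SE) on the log2 scale (edgeR adjusted p = 0.000269). The groups were apart in these 3 as well. In ketone body synthesis 3 of 10 genes rose, but the count was 1 without STAM replicate 1.

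Some other acyl-CoA genes fell. Acsl5, a long-chain acyl-CoA synthetase, stood at 401, 358 and 404 CPM in chow and 191, 182 and 198 CPM in STAM and fell by 1.02 ± 0.12 (SE) on the log2 scale (edgeR adjusted p = 3.85e-05). Acsl5 overlaps the gene Zdhhc6 on the other strand, and the strand setting of the counting is not given in the sources used here. Dbi, the acyl-CoA binding protein that carries acyl-CoA in the cytosol, was an abundant transcript at 4783, 4960 and 5196 CPM in chow and 2791, 2728 and 2998 CPM in STAM and fell by 0.81 ± 0.10 (SE) on the log2 scale (edgeR adjusted p = 9.84e-05). Every STAM library lay below every chow library in both genes. Slc25a1, which exports citrate from mitochondria for fat synthesis, stood at 121, 134 and 142 CPM in chow and 79.1, 77.9 and 85.5 CPM in STAM and fell by 0.71 ± 0.14 (SE) on the log2 scale (edgeR adjusted p = 0.00653).

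Transcripts of the respiratory chain were mostly not called. Of 76 nuclear-encoded respiratory chain genes 0 rose and 0 fell by edgeR, DESeq2 or limma-voom, with 5 higher and 0 lower at an unadjusted p under 0.05 in edgeR. Of the 8 mitochondrially encoded transcripts tested, 2 rose, or 1 without STAM replicate 2 or 3 or chow replicate 8. mt-Nd5, a subunit of complex I, stood at 1313, 1434 and 1824 CPM in chow and 2553, 2307 and 2638 CPM in STAM, without overlap, and rose by 0.71 ± 0.12 (SE) on the log2 scale (edgeR adjusted p = 0.00187). It overlaps mt-Nd6 on the other strand. Ucp2, an uncoupling protein of the inner membrane, stood at 18.9, 10.7 and 14.5 CPM in chow and 47.7, 35.2 and 38.1 CPM in STAM and rose by 1.45 ± 0.20 (SE) on the log2 scale (edgeR adjusted p = 0.00022). Of 28 genes of the citric acid cycle and pyruvate oxidation 3 rose and 2 fell, but both counts were 0 without STAM replicate 3. The higher count was also 1 without chow replicate 9 or STAM replicate 1 or 2, and the lower count was 0 without STAM replicate 1 or chow replicate 8 and 1 without STAM replicate 2.

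Synthesis of fat and sterols, to which citrate and NADPH are fed, served as a yardstick: of 20 well-known lipogenic and sterol genes 15 fell, with a median change of -1.76, and between 13 and 17 fell without 1 library. Of the enzymes of sterol synthesis outside that list, Pmvk and Mvd, which act on phosphorylated forms of mevalonate, fell by 2.22 ± 0.20 (SE) on the log2 scale (edgeR adjusted p = 1.73e-06) and by 2.48 ± 0.24 (SE) on the log2 scale (edgeR adjusted p = 4.51e-06). Pmvk stood at 64, 60.1 and 67.5 CPM in chow and 9.95, 15 and 16.1 CPM in STAM. Dhcr7, the last step on one branch to cholesterol, stood at 62.7, 63.8 and 65.2 CPM in chow and 11.5, 15.6 and 18.9 CPM in STAM and fell by 2.06 ± 0.19 (SE) on the log2 scale (edgeR adjusted p = 2.12e-06). Sc5d, a desaturase just before it, stood at 528, 600.5 and 576 CPM in chow and 222, 234 and 219 CPM in STAM and fell by 1.34 ± 0.12 (SE) on the log2 scale (edgeR adjusted p = 1.53e-06). The highest STAM library of each was below the lowest chow library.

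Lipoprotein genes fell more often than they rose. Of 32 tested, 2 rose and 7 fell. The count of genes that fell was 11 without chow replicate 7 and 4 without STAM replicate 1 or chow replicate 8, and that of genes that rose was 0 without any 1 library other than chow replicate 7. Apom, which carries sphingosine phosphate on HDL, stood at 428, 473 and 502 CPM in chow and 324, 283 and 283 CPM in STAM and fell by 0.66 ± 0.12 (SE) on the log2 scale (edgeR adjusted p = 0.00358). Pltp, which moves phospholipid between lipoproteins, stood at 30.7, 71.2 and 53 CPM in chow and 20.1, 16.4 and 11.7 CPM in STAM and fell by 1.68 ± 0.29 (SE) on the log2 scale (edgeR adjusted p = 0.00156). Pltp overlaps Ctsa on the other strand. The groups were apart in both genes. Apoa4, an apolipoprotein of chylomicrons and fat-laden liver, stood at 753, 182 and 200.2 CPM in chow and 877, 1347 and 793 CPM in STAM. There chow replicate 7 lay close to the STAM libraries, and the call was lost without any 1 library other than chow replicate 7, by DESeq2 and in the fit of the 2 groups alone.

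Phospholipid genes split. Pemt, which turns phosphatidylethanolamine into phosphatidylcholine, stood at 346, 403 and 386 CPM in chow and 235, 215 and 259.5 CPM in STAM and fell by 0.68 ± 0.12 (SE) on the log2 scale (edgeR adjusted p = 0.00203). Pcyt2, the rate-setting enzyme of phosphatidylethanolamine synthesis, stood at 145, 183 and 168 CPM in chow and 106, 91.8 and 109.6 CPM in STAM and fell by 0.69 ± 0.13 (SE) on the log2 scale (edgeR adjusted p = 0.00422). Gpcpd1, which breaks down glycerophosphocholine, stood at 30.3, 39.5 and 57.5 CPM in chow and 128, 112 and 71.5 CPM in STAM and rose by 1.30 ± 0.23 (SE) on the log2 scale (edgeR adjusted p = 0.00181). The groups overlapped in none of these 3 genes. Of the 27 phospholipid genes tested 2 rose and 2 fell, with a median change of -0.00531, and the higher count was 1 without chow replicate 7 or any 1 STAM library.

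Several abundant transcripts of plasma proteins made by the hepatocyte fell. Of 18 plasma carriers 7 fell and 1 rose, and the lower count stayed between 5 and 7 when 1 library was left out. Afm, afamin, a vitamin E carrier, stood at 210.1, 221 and 241 CPM in chow and 119, 116 and 135 CPM in STAM and fell by 0.86 ± 0.12 (SE) on the log2 scale (edgeR adjusted p = 0.000219). Trf, transferrin, the iron carrier of plasma, stood at 14110, 14420 and 13950 CPM in chow and 8477, 9732 and 9879 CPM in STAM and fell by 0.60 ± 0.10 (SE) on the log2 scale (edgeR adjusted p = 0.00184). No STAM library reached the chow range in either gene.

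Of 28 clotting and fibrinolysis genes 8 fell and 0 rose, with 17 lower and 0 higher at an unadjusted p under 0.05, and the median change was -0.342. DESeq2 called 10 lower and limma-voom 13, and neither called a member higher. The count was 12 without chow replicate 7, 4 without STAM replicate 1 or chow replicate 8, and 5 without chow replicate 9. The 3 chains of fibrinogen, the precursor of fibrin, lie side by side on chromosome 3 and fell together. Fga stood at 2336, 2711 and 2758 CPM in chow and 1355, 1602 and 1336 CPM in STAM and fell by 0.86 ± 0.13 (SE) on the log2 scale (edgeR adjusted p = 0.0005). Fgb stood at 5162, 4985 and 5658 CPM in chow and 3080, 3617 and 3200 CPM in STAM and fell by 0.68 ± 0.11 (SE) on the log2 scale (edgeR adjusted p = 0.000862). Fgg stood at 2583, 2991 and 3169 CPM in chow and 1802, 1981 and 1570 CPM in STAM and fell by 0.71 ± 0.14 (SE) on the log2 scale (edgeR adjusted p = 0.00595). In each of the 3 genes the highest STAM library was below the lowest chow library. Pzp, a broad protease inhibitor of mouse plasma, stood at 2917, 3361 and 3406 CPM in chow and 2013, 2258 and 1823 CPM in STAM and fell by 0.67 ± 0.12 (SE) on the log2 scale (edgeR adjusted p = 0.00296).

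Acute phase genes moved in both directions, with 6 of 26 higher and 6 lower and a median change of 0.114. The acute phase is the change in plasma proteins that cytokines of inflammation set off in the liver. Among the genes that rose, Saa2, a serum amyloid A, stood at 41.8, 23.6 and 21.3 CPM in chow and 94.2, 178 and 94.3 CPM in STAM and rose by 2.07 ± 0.26 (SE) on the log2 scale (edgeR adjusted p = 7.47e-05), and Saa1 stood at 109.8, 66.4 and 82.6 CPM in chow and 216, 359 and 156 CPM in STAM and rose by 1.5 ± 0.24 (SE) on the log2 scale (edgeR adjusted p = 0.000951). STAM replicate 2 was the highest library in both, and the groups did not overlap. Saa1 and Saa2 are near-identical copies, and reads may be split between them. Serpina3n, a protease inhibitor induced by glucocorticoids and cytokines, stood at 250.1, 243 and 275 CPM in chow and 414, 468 and 475 CPM in STAM and rose by 0.82 ± 0.13 (SE) on the log2 scale (edgeR adjusted p = 0.000656).

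Orm2, an orosomucoid, stood at 4.12, 5.18 and 5.02 CPM in chow and 14.5, 14.4 and 14.7 CPM in STAM and rose by 1.61 ± 0.29 (SE) on the log2 scale (edgeR adjusted p = 0.00217), while its copy Orm1 was one of the 7 plasma carriers that fell. Orm1 was named after its value was seen, and reads may be split between the copies. Among the acute phase genes that fell, Apcs, serum amyloid P (GRCm38 chr1:172893961-172895041), the main acute phase pentraxin of the mouse, stood at 116, 116 and 131 CPM in chow and 31.1, 33.8 and 36.2 CPM in STAM and fell by 1.84 ± 0.23 (SE) on the log2 scale (edgeR adjusted p = 5.9e-05). The STAM libraries held less than any chow library by a wide margin. Cp, ceruloplasmin, the copper-bearing oxidase of plasma, stood at 1698, 1688 and 1764 CPM in chow and 1119, 1212 and 1149 CPM in STAM and fell by 0.57 ± 0.10 (SE) on the log2 scale (edgeR adjusted p = 0.00277). Cp overlaps Hps3 on the other strand. Markers of neutrophils and of recruited macrophages, given above, overlapped between the groups, and their part in these changes was not tested.

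**Figure D4:**
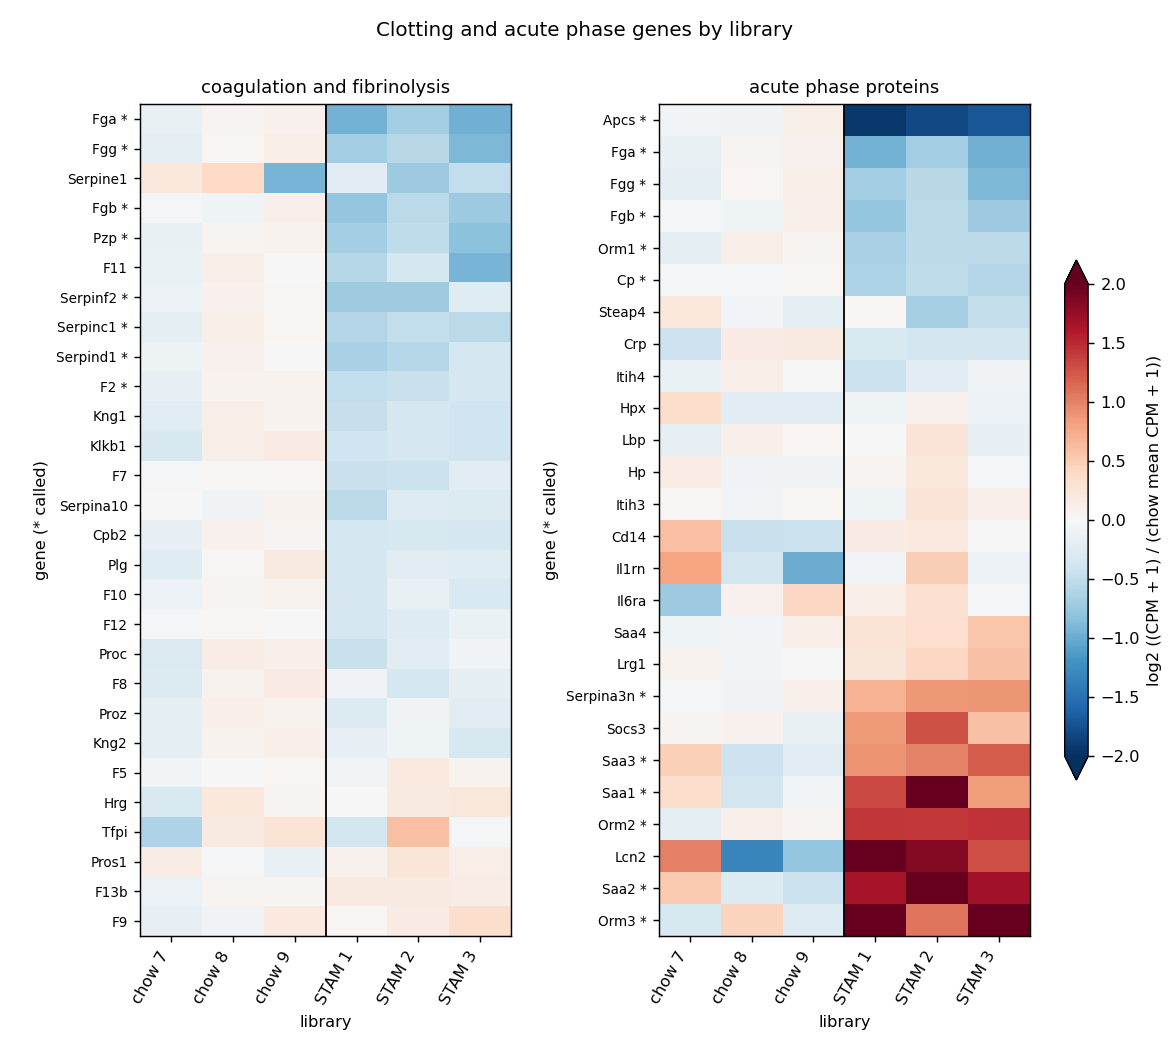
Log2 ratio of CPM + 1 in each library to the mean chow CPM + 1, for all tested genes of clotting and fibrinolysis (left) and of the acute phase (right), ordered by fold change, with called genes starred. The fibrinogen chains and Apcs were low in all 3 STAM libraries, and Saa1, Saa2 and Serpina3n were high in all 3.

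Promoter windows of RefSeq (build GRCm38.p6, 300 bases ending 50 bases after the start of transcription) were read for the called acute phase genes, because members of 1 group went in opposite directions. The motif TTCNNNGAA, which reads the same on both strands and is the core bound by STAT factors, the factors through which interleukin-6 acts, was searched, as 1 of 10 motifs searched in these windows. Of the 12 called genes 11 had a window. The motif was found in 3 of the 5 that fell and in 0 of the 6 that rose, while 8.3% of the 9699 tested genes with a window held it. Since 9699 of the 12660 tested genes had a window, under the 80% set as needed, a check of motif shares in called genes against all genes is void. Among called genes with a window the motif was held by 7.3% of those that rose and 7.54% of those that fell. It was also found in the window of Hamp, an iron hormone described below. The 4 windows that held it are shown 5′ to 3′ with the match in capitals, since these genes fell together.
Apcs (chr1:172895005-172895304, minus strand): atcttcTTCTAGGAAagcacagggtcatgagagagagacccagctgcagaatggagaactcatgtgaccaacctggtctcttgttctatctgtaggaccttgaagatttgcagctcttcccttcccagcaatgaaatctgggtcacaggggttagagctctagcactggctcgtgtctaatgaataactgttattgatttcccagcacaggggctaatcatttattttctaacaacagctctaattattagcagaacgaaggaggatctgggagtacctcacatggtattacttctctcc
Fga (chr3:83025903-83026202, plus strand): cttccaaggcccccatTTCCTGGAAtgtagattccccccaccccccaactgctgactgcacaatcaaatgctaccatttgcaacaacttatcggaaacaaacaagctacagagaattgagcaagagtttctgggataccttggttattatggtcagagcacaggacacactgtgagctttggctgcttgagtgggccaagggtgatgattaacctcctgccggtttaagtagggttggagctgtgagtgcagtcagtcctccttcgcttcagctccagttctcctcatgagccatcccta
Fgb (chr3:83049814-83050113, minus strand): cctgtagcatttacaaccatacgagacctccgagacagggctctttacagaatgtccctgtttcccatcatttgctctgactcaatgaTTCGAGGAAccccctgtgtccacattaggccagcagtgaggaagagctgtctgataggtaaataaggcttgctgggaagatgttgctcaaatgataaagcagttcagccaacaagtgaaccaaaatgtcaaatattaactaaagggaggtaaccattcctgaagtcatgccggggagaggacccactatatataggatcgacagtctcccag
Hamp (chr7:30943980-30944279, minus strand): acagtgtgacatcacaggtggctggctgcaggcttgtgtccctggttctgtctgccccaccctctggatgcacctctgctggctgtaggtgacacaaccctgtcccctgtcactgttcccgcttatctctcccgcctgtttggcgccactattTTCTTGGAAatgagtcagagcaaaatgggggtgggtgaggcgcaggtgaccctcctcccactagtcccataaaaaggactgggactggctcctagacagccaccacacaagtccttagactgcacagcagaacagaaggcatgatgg
The match begins 244, 234, 162 and 97 bases before the start in Apcs, Fga, Fgb and Hamp. The motif and the windows were chosen after the levels of these genes were known. A match is a description of the letters and no evidence of binding.

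Complement genes were called in 13.8% of cases, against 3.94% of all tested genes. Of 29 tested, 3 fell and 1 rose, and the lower count was 1 without STAM replicate 1 or 2 or chow replicate 8. The change was negative in 22 of the 29, with a median of -0.243. At an unadjusted p under 0.05 in edgeR, 7 were lower and 2 higher. DESeq2 called 3 lower and 1 higher, and limma-voom 6 and 1. C8b, a chain of the membrane attack complex, stood at 468, 558 and 628 CPM in chow and 331, 398 and 288 CPM in STAM and fell by 0.70 ± 0.14 (SE) on the log2 scale (edgeR adjusted p = 0.00499). H2-Q10, a class I histocompatibility protein secreted by the mouse liver, stood at 1784, 1714 and 1650 CPM in chow and 936, 1087 and 1111 CPM in STAM and fell by 0.72 ± 0.11 (SE) on the log2 scale (edgeR adjusted p = 0.000542). Serpina12, the secreted protein vaspin, stood at 114, 218 and 249 CPM in chow and 73.3, 87.6 and 73.2 CPM in STAM and fell by 1.31 ± 0.21 (SE) on the log2 scale (edgeR adjusted p = 0.000785). The groups did not overlap in these 3 genes.

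Iron genes changed at the hormone, the carrier and the receptor. Of 30 iron and heme genes 2 rose and 4 fell, and both counts were the same in each of the 6 fits without 1 library. Hamp (GRCm38 chr7:30942368-30944032) encodes hepcidin, the liver hormone that removes the iron exporter ferroportin from cell surfaces. Hamp stood at 1564, 1572 and 1276 CPM in chow and 658, 536 and 866 CPM in STAM, with no overlap, and fell by 1.10 ± 0.15 (SE) on the log2 scale (edgeR adjusted p = 0.000223). Its close copy Hamp2 stood at 55.4, 90.5 and 116 CPM in chow and 16.3, 13.3 and 36.3 CPM in STAM and fell by 1.99 ± 0.35 (SE) on the log2 scale (edgeR adjusted p = 0.00217). Slc40a1, ferroportin itself, which is also a Kupffer cell marker, stood at 120.3, 139.8 and 119 CPM in chow and 88.1, 77.7 and 78.4 CPM in STAM and fell by 0.63 ± 0.12 (SE) on the log2 scale (edgeR adjusted p = 0.0049). Of the 11 Kupffer cell markers it alone was called.

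Tfrc, the transferrin receptor through which cells take up iron, stood at 9.06, 12.9 and 10.5 CPM in chow and 25.1, 33.4 and 33.9 CPM in STAM and rose by 1.51 ± 0.20 (SE) on the log2 scale (edgeR adjusted p = 0.000136). The chow libraries reached at most 12.9 CPM, and the lowest STAM library had 25.1 CPM. Alas1, the rate-setting enzyme of heme synthesis, stood at 323, 384 and 344 CPM in chow and 659.9, 472 and 726 CPM in STAM and rose by 0.82 ± 0.16 (SE) on the log2 scale (edgeR adjusted p = 0.00398).

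Cytochrome P450 genes moved in both directions, with 4 of 33 Cyp2 genes higher and 7 lower. The lower count was 13 without chow replicate 7. Cyp2c29 (GRCm38 chr19:39269405-39330713), an abundant enzyme that oxidises drugs, steroids and fatty acids, stood at 1220, 1961 and 1926 CPM in chow and 198, 213 and 335 CPM in STAM and fell by 2.77 ± 0.21 (SE) on the log2 scale (edgeR adjusted p = 1.75e-07). Cyp2c68 stood at 152, 183 and 174 CPM in chow and 63.5, 59.4 and 63.3 CPM in STAM and fell by 1.45 ± 0.12 (SE) on the log2 scale (edgeR adjusted p = 7.26e-07). No STAM library came near the chow range in either gene. Of the 13 Cyp2c genes tested 5 fell, namely Cyp2c29, Cyp2c40, Cyp2c67, Cyp2c68 and Cyp2c70. Cyp2c70, which makes muricholic acids in mice, stood at 462, 659 and 547.7 CPM in chow and 125, 177.5 and 145 CPM in STAM. Cyp2c67 stood at 143, 247 and 197 CPM in chow and 76.1, 93.4 and 86.7 CPM in STAM. Cyp2c40 stood at 7.41, 32.3 and 25.3 CPM in chow and 3.32, 4.25 and 4.93 CPM in STAM. The groups were apart in all 3, with chow replicate 7 the lowest chow library in each. Cyp2c40 and Cyp2c67 were named after their values were seen. Members of this family are close copies, and the counting could split reads between them.

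Windows of the same RefSeq table were available for 11 of the 13 Cyp2c genes. The motif CAAAGTCCA, a form of the element bound by the hepatocyte factor HNF4, was searched on both strands and was found in 5 of the 11 (Cyp2c40, Cyp2c67, Cyp2c68, Cyp2c69 and Cyp2c70) and in 0.67% of the 9699 tested genes with a window, 1.12% of those called higher and 3.02% of those called lower. Of those 5 genes 4 fell, and the fifth, Cyp2c69, was not called. Of the 6 without it 1 fell (Cyp2c29). Since too few tested genes had a window, as given above, a check of motif shares against all genes is void here too. The 3.02% stands for 6 of the 199 genes called lower that had a window. Of those 6 genes, 4 are the Cyp2c genes that held the motif and fell. The windows of the 4 that held the motif and fell are shown 5′ to 3′ with the match in capitals.
Cyp2c67 (chr19:39648993-39649292, minus strand): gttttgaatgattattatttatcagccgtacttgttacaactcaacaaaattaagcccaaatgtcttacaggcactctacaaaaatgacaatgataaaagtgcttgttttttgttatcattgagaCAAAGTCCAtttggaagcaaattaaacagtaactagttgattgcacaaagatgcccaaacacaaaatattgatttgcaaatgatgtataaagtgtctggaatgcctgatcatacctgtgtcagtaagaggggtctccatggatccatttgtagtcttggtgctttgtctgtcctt
Cyp2c68 (chr19:39741052-39741351, minus strand): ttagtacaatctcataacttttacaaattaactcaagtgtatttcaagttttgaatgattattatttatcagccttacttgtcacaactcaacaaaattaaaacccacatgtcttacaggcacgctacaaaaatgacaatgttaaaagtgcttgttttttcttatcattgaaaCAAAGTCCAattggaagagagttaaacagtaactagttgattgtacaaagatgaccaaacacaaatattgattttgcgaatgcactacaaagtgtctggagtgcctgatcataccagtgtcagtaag
Cyp2c40 (chr19:39812765-39813064, minus strand): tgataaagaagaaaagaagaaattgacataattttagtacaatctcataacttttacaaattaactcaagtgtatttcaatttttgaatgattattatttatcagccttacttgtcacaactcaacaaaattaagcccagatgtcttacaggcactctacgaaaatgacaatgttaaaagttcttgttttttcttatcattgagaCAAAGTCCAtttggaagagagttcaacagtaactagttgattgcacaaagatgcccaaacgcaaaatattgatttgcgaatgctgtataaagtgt
Cyp2c70 (chr19:40187237-40187536, minus strand): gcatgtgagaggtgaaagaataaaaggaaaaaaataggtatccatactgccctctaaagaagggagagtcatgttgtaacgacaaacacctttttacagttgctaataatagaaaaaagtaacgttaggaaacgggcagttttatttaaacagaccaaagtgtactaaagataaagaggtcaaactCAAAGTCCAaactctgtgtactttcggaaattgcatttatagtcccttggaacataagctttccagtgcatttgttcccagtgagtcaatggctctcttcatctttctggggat
The first 3 windows are copies of one another, with 90.6% identity between Cyp2c67 and Cyp2c68, 93.2% between Cyp2c67 and Cyp2c40 and 93.3% between Cyp2c68 and Cyp2c40 over the bases that align, so their matches are not independent. This motif, too, was chosen after the levels were known, and a match is no evidence of binding.

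Cyp1a2, a target of the aryl hydrocarbon receptor found around the central vein, stood at 826, 1425 and 1262 CPM in chow and 637, 652 and 664 CPM in STAM and fell by 0.85 ± 0.16 (SE) on the log2 scale (edgeR adjusted p = 0.00419). Cyp2e1, another enzyme of that zone, stood at 1903, 3955 and 3424 CPM in chow and 4294, 3280 and 4349 CPM in STAM, so the groups overlapped and it was not called. Cyp2a5, which oxidises coumarin and nicotine, stood at 286, 325 and 226 CPM in chow and 578, 499 and 582 CPM in STAM and rose by 0.99 ± 0.13 (SE) on the log2 scale (edgeR adjusted p = 0.000166). Cyp2a22, of the same family, stood at 4.63, 0.603 and 1.48 CPM in chow and 13.6, 8.27 and 10.5 CPM in STAM and rose by 2.20 ± 0.43 (SE) on the log2 scale (edgeR adjusted p = 0.00506), or by 3.40 without chow replicate 7. Cyp2b13, known as more abundant in female liver, had 0 counts in the 3 chow libraries and 61 counts in all in the 3 STAM libraries. Against the limit that a count of 0 allows (3 counts over the group), the STAM level of 2.36 CPM was at least 19.1-fold higher. Cyp3a11, the main drug-oxidising enzyme of its family, stood at 917, 534 and 411 CPM in chow and 1061, 1082 and 1202 CPM in STAM. Chow replicate 7 lay close to the STAM libraries there, and the call was lost without any 1 library other than chow replicate 7, by DESeq2 and in the fit of the 2 groups alone.

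Por, which hands electrons to P450 enzymes, rose, while Cyb5b and Cyb5r3 fell. Cyb5a, the other cytochrome b5 gene listed, was not called. Por, cytochrome P450 reductase (GRCm38 chr5:135670033-135735326), the donor that every microsomal P450 needs, stood at 168, 183 and 159 CPM in chow and 321, 369 and 392 CPM in STAM and rose by 1.08 ± 0.13 (SE) on the log2 scale (edgeR adjusted p = 4.12e-05). Cyb5b, a cytochrome b5 of the outer mitochondrial membrane, stood at 324, 409 and 418 CPM in chow and 198, 180.3 and 235 CPM in STAM and fell by 0.91 ± 0.13 (SE) on the log2 scale (edgeR adjusted p = 0.000377). Cyb5r3, the reductase that feeds cytochrome b5, stood at 457, 529.8 and 513 CPM in chow and 255, 279 and 333 CPM in STAM and fell by 0.79 ± 0.15 (SE) on the log2 scale (edgeR adjusted p = 0.00388). Cyb5r3 overlaps the gene Gm49463 on the other strand. Por, Cyb5b and Cyb5r3 did not overlap between the groups.

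Among conjugating enzymes, glutathione S-transferases had a median change of -0.537 over 21 genes, with 2 higher and 4 lower. The lower count was 7 without chow replicate 7, and the higher count was 1 without chow replicate 9 or any 1 STAM library. Gstm1, a member of the mu class, stood at 2328, 1697 and 1556 CPM in chow and 865, 862 and 1071 CPM in STAM and fell by 1.0 ± 0.16 (SE) on the log2 scale (edgeR adjusted p = 0.000785). Gstm6 stood at 106, 132 and 105 CPM in chow and 36.8, 44.3 and 33.8 CPM in STAM and fell by 1.58 ± 0.16 (SE) on the log2 scale (edgeR adjusted p = 7.45e-06). Gstk1, a member of mitochondria and peroxisomes, went the other way, standing at 153, 158 and 148 CPM in chow and 236, 232 and 299.5 CPM in STAM and rising by 0.74 ± 0.13 (SE) on the log2 scale (edgeR adjusted p = 0.00185). The groups were apart in all 3 genes. Of 28 targets of NRF2, the factor that induces antioxidant genes, 0 rose and 0 fell by edgeR, with 6 higher and 2 lower at an unadjusted p under 0.05. DESeq2 called 2 higher and 1 lower, and limma-voom 3 and 1. Without chow replicate 7, 4 rose.

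Carboxylesterases, which split esters of drugs and fats, fell in 4 of 14 tested genes, with a median change of -0.203, but the count was 1 without chow replicate 8 or any 1 STAM library and 2 without chow replicate 9. Ces1c, the form secreted into mouse plasma, stood at 1877, 2276 and 2104 CPM in chow and 1129, 1235 and 1456 CPM in STAM and fell by 0.71 ± 0.12 (SE) on the log2 scale (edgeR adjusted p = 0.0018). Ugt2b38, a glucuronosyltransferase, stood at 8.65, 18.2 and 19.5 CPM in chow and 4.53, 3.07 and 2.04 CPM in STAM and fell by 2.25 ± 0.42 (SE) on the log2 scale (edgeR adjusted p = 0.00327).

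Some vitamin A genes that interconvert retinol and retinal fell. Of 26 retinoid genes 4 fell and 2 rose, and the higher count was 1 without any 1 library. Rdh11, a retinal reductase (GRCm38 chr12:79174337-79192293), stood at 88.1, 104 and 106 CPM in chow and 15, 10.6 and 12.6 CPM in STAM and fell by 2.96 ± 0.17 (SE) on the log2 scale (edgeR adjusted p = 8.96e-09). Its chow libraries lay close together, and so did its STAM libraries at a far lower level. Rdh16f2, a retinol dehydrogenase, stood at 73.2, 87.7 and 87.6 CPM in chow and 29.5, 27 and 28 CPM in STAM and fell by 1.55 ± 0.15 (SE) on the log2 scale (edgeR adjusted p = 3.8e-06). Retsat, which saturates retinol, stood at 320.5, 436 and 392 CPM in chow and 652, 547 and 759 CPM in STAM and rose by 0.77 ± 0.14 (SE) on the log2 scale (edgeR adjusted p = 0.00225).

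Amino acid genes changed at single steps. Csad, which makes the taurine precursor hypotaurine, stood at 561, 554 and 486 CPM in chow and 142, 175 and 199.6 CPM in STAM and fell by 1.63 ± 0.24 (SE) on the log2 scale (edgeR adjusted p = 0.000412). Csad overlaps Zfp740 on the other strand. Gcat, which breaks down a product of threonine, stood at 85.9, 96.3 and 91.5 CPM in chow and 39.7, 37.9 and 42.4 CPM in STAM and fell by 1.19 ± 0.14 (SE) on the log2 scale (edgeR adjusted p = 4.12e-05). Oat, ornithine aminotransferase, stood at 224, 330.5 and 274 CPM in chow and 630.1, 513 and 556 CPM in STAM and rose by 1.04 ± 0.17 (SE) on the log2 scale (edgeR adjusted p = 0.000821). None of the 3 overlapped between the groups. Of 40 genes of amino acid breakdown 2 rose and 4 fell. The higher count was 1 without any 1 library other than chow replicate 7, and the lower count was 2 without STAM replicate 1 or 2 or chow replicate 8 or 9.

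The oxidation of branched-chain amino acids showed 3 of 24 genes higher, a count of 2 or 3 when 1 library was left out, with 0 lower by edgeR, DESeq2 or limma-voom and 0 lower at an unadjusted p under 0.05. Ppm1k, the phosphatase that switches on the branched-chain ketoacid dehydrogenase, stood at 76.7, 92.9 and 99.9 CPM in chow and 194, 180.3 and 174 CPM in STAM and rose by 1.03 ± 0.14 (SE) on the log2 scale (edgeR adjusted p = 0.000225). Hsd17b10, which acts in isoleucine breakdown, stood at 184, 235 and 212 CPM in chow and 354, 310.0 and 366 CPM in STAM and rose by 0.71 ± 0.14 (SE) on the log2 scale (edgeR adjusted p = 0.00433). Both were higher in each STAM library than in each chow library.

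Methyl group genes changed at the ends of the pathway. Mat1a, which makes the methyl donor S-adenosylmethionine, was an abundant transcript at 1886, 2143 and 2024 CPM in chow and 3021, 3168 and 3973 CPM in STAM and rose by 0.75 ± 0.12 (SE) on the log2 scale (edgeR adjusted p = 0.000864). Nnmt, which uses that donor to methylate nicotinamide, stood at 81.4, 69.4 and 55.9 CPM in chow and 144, 184 and 175 CPM in STAM and rose by 1.28 ± 0.20 (SE) on the log2 scale (edgeR adjusted p = 0.000839). Aldh1l1, a folate enzyme, stood at 376, 488 and 423 CPM in chow and 233, 221 and 294 CPM in STAM and fell by 0.78 ± 0.14 (SE) on the log2 scale (edgeR adjusted p = 0.00262). The groups were apart in all 3. Of the 24 genes of the group 2 rose and 3 fell.

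Urea cycle genes passed the test in 1 of 14 cases, and 2 others fell without chow replicate 7. Cps1, the entry enzyme, stood at 960.5, 1221 and 1180 CPM in chow and 881, 1000 and 919 CPM in STAM, and Ass1 at 1004, 877 and 784 CPM in chow and 745, 896 and 662 CPM in STAM. The groups overlapped in both, and neither was called. Asl, the next enzyme, stood at 214, 258 and 285 CPM in chow and 340.1, 362 and 487 CPM in STAM, without overlap, and lost its call without STAM replicate 3 (adjusted p = 0.0886 in edgeR's test). Slc7a2, which carries arginine, lysine and ornithine into the cell, stood at 177, 168 and 175 CPM in chow and 332, 395 and 292 CPM in STAM and rose by 0.97 ± 0.12 (SE) on the log2 scale (edgeR adjusted p = 9.84e-05). Slc3a1, the heavy chain of a cystine and basic amino acid carrier, stood at 32.4, 19.3 and 16.8 CPM in chow and 3.1, 4.37 and 5.05 CPM in STAM and fell by 2.46 ± 0.31 (SE) on the log2 scale (edgeR adjusted p = 7.62e-05). Slc3a1 overlaps Prepl on the other strand. Neither carrier overlapped between the groups.

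Several transporters of the hepatocyte and bile duct membranes fell. Slc10a2, the apical sodium-dependent bile acid carrier of bile duct cells, stood at 51, 31.5 and 33.8 CPM in chow and 2.32, 5.67 and 6.49 CPM in STAM and fell by 3.01 ± 0.32 (SE) on the log2 scale (edgeR adjusted p = 8.75e-06). Markers of bile duct cells overlapped between the groups, as given above. Slco2a1, a prostaglandin carrier, stood at 76.6, 91.2 and 106 CPM in chow and 22.7, 28.6 and 26.2 CPM in STAM and fell by 1.82 ± 0.16 (SE) on the log2 scale (edgeR adjusted p = 9.44e-07). Slco1a1, an organic anion carrier more abundant in male liver, stood at 316, 555 and 659 CPM in chow and 249.6, 254 and 189.9 CPM in STAM and fell by 1.14 ± 0.21 (SE) on the log2 scale (edgeR adjusted p = 0.00277).

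Slc22a30, of the organic anion transporter family, stood at 83.5, 129.6 and 129 CPM in chow and 58.1, 60.9 and 58.4 CPM in STAM and fell by 0.95 ± 0.17 (SE) on the log2 scale (edgeR adjusted p = 0.00199). Aqp8, a water channel of the bile canaliculus and mitochondria, stood at 128, 132 and 109.8 CPM in chow and 42.6, 44.4 and 52.3 CPM in STAM and fell by 1.41 ± 0.14 (SE) on the log2 scale (edgeR adjusted p = 7.06e-06). No overlap was present in these 5 transporters. Of 29 organic anion and drug transporters 2 rose and 4 fell. The lower count was 7 without chow replicate 7, and the higher count was 1 without STAM replicate 1 or chow replicate 8 or 9.

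Growth hormone and hormone receptor genes gave few calls, 1 higher and 1 lower of 20, or 2 and 2 without chow replicate 7 and 1 and 2 without STAM replicate 3. Igf1, the main growth factor made by the liver, stood at 1156, 1371 and 1330 CPM in chow and 1005, 1147 and 1164 CPM in STAM, and Ghr, the growth hormone receptor, at 348, 547 and 533 CPM in chow and 462, 373 and 428 CPM in STAM. Both overlapped between the groups and were not called. Lepr, the leptin receptor, stood at 0.412, 3.5 and 2.07 CPM in chow and 12.9, 5.9 and 8.65 CPM in STAM, without overlap, and lost its call without chow replicate 9 or STAM replicate 1 (adjusted p = 0.0503 and 0.12 in edgeR's test). Prlr, the prolactin receptor, stood at 78.1, 122 and 87 CPM in chow and 40.7, 43.9 and 64.4 CPM in STAM, also without overlap, and lost its call without STAM replicate 1 (adjusted p = 0.0556 in edgeR's test). Avpr1a, the vasopressin receptor of hepatocytes, stood at 16.5, 22.2 and 20.5 CPM in chow and 4.75, 4.72 and 6.73 CPM in STAM and fell by 1.87 ± 0.31 (SE) on the log2 scale (edgeR adjusted p = 0.00113).

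Major urinary proteins, carriers of scent molecules made by the liver under growth hormone and androgens, went both ways. Mup9 stood at 83.6, 33.6 and 121 CPM in chow and 272, 352 and 325 CPM in STAM and rose by 2.00 ± 0.28 (SE) on the log2 scale (edgeR adjusted p = 0.000275). Mup12 stood at 17.8, 30.2 and 34.1 CPM in chow and 5.86, 5.55 and 8.77 CPM in STAM and fell by 2.02 ± 0.29 (SE) on the log2 scale (edgeR adjusted p = 0.000352). Neither overlapped between the groups. Mup20, known as darcin, stood at 1768, 1628 and 2006 CPM in chow and 1866, 2250 and 2558 CPM in STAM and was not called. Of 13 Mup genes 1 rose and 2 fell, with 2 rising without chow replicate 7 or 9, 4 falling without chow replicate 7, and 1 falling without chow replicate 9 or STAM replicate 1 or 3. The genes are near-identical copies in 1 cluster, so the split of reads between them is uncertain.

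Stress programmes differed in their calls. Of 29 genes of protein folding in the endoplasmic reticulum 0 rose and 0 fell by edgeR, but 26 of 29 had a negative fold change, the median was -0.237, and 12 were lower at an unadjusted p under 0.05 against 0 higher. DESeq2 called 0 and limma-voom 1 lower, and 1 fell without chow replicate 7. Hspa5, the main chaperone there, stood at 1584, 1457 and 1556 CPM in chow and 1412, 1274 and 1041 CPM in STAM, with each STAM library below each chow library. Of 41 lysosome and autophagy genes 0 rose and 0 fell by edgeR, with 3 higher and 4 lower at an unadjusted p under 0.05, while DESeq2 and limma-voom each called 1 lower.

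Heat shock genes gave 1 lower call of 27 (3.7%, against 1.99% over all tested genes). This was Hspa1b, at 8.34, 47.1 and 156 CPM in chow and 17, 15.8 and 10.9 CPM in STAM. The highest library was chow replicate 9, the groups overlapped, and the call was lost without chow replicate 9 or any 1 STAM library, by DESeq2, by limma-voom and in the fit of the 2 groups alone. Without chow replicate 7, 7 of the 27 fell. Of 22 targets of p53, the factor that halts cells with damaged DNA, 3 rose (13.6%, against 1.95% over all tested genes) and 0 fell. The higher count was 8 without chow replicate 7, 2 without STAM replicate 1 and 1 without STAM replicate 2 or 3 or chow replicate 8. Ccng1, cyclin G1, stood at 23.6, 25.8 and 22.2 CPM in chow and 43.5, 44.4 and 40.7 CPM in STAM and rose by 0.84 ± 0.15 (SE) on the log2 scale (edgeR adjusted p = 0.00268). Its libraries lay close together within each group and apart between them.

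Clock genes, nuclear receptors and liver transcription factors passed the test in 2 of 22, 2 of 33 and 2 of 28 cases. These were 9.09%, 6.06% and 7.14%, against 3.94% of all tested genes, and none of these calls held without each library in turn. Usp2, a deubiquitinase with a daily rhythm, stood at 27.9, 70.9 and 42.3 CPM in chow and 95.1, 99 and 102 CPM in STAM, without overlap, and lost its call without chow replicate 9 (adjusted p = 0.0581 in edgeR's test). Dbp, a rhythmic output gene of the clock, stood at 50.3, 110.2 and 69.3 CPM in chow and 109, 119 and 65.5 CPM in STAM, and the groups overlapped. Arntl, the core clock factor Bmal1, stood at 5.04, 0.603 and 0.443 CPM in chow and 1.44, 0.354 and 3.73 CPM in STAM and overlapped as well. The hour at which tissue was taken is not given in the sources used here.

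Several further genes changed by large amounts. Krt23, a keratin low in healthy liver and placed here among fetal and tumour-associated genes, stood at 9.47, 5.06 and 2.81 CPM in chow and 46.1, 47.2 and 26.8 CPM in STAM and rose by 2.75 ± 0.33 (SE) on the log2 scale (edgeR adjusted p = 4.9e-05). Of the 26 genes of that group 5 rose, a count that was 12 without chow replicate 7, 2 without STAM replicate 1 or chow replicate 8 or 9 and 3 without STAM replicate 2. Afp, alpha-fetoprotein, stood at 2.26, 0.362 and 2.96 CPM in chow and 7.41, 3.07 and 5.53 CPM in STAM, without overlap, and was not called (adjusted p = 0.187 in edgeR's test). Slc35f2, a solute carrier, stood at 0.926, 0 and 0.148 CPM in chow and 11.6, 10.2 and 8.65 CPM in STAM and rose by 4.65 ± 0.63 (SE) on the log2 scale (edgeR adjusted p = 0.000171), or by 6.97 without chow replicate 7. Themis, known from the development of T cells, stood at 1.24, 0.844 and 0 CPM in chow and 16.4, 13.2 and 13.2 CPM in STAM and rose by 4.24 ± 0.57 (SE) on the log2 scale (edgeR adjusted p = 0.000151), or by 4.92 without chow replicate 7. The tested T and NK cell markers summed to 4.58 to 5.15 CPM in chow and to 2.95 to 9.01 CPM in STAM.

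Lgals1, galectin-1, a sugar-binding protein of many cell types, stood at 36.5, 29.8 and 17.6 CPM in chow and 81.4, 61.3 and 93.4 CPM in STAM and rose by 1.48 ± 0.21 (SE) on the log2 scale (edgeR adjusted p = 0.000269). Gpc1, a heparan sulfate proteoglycan of the cell surface, stood at 20.6, 12.5 and 12.3 CPM in chow and 48.7, 41.8 and 57.4 CPM in STAM and rose by 1.69 ± 0.21 (SE) on the log2 scale (edgeR adjusted p = 5.33e-05). Tpm2, a tropomyosin, stood at 9.26, 9.16 and 4.29 CPM in chow and 34.4, 21 and 38.2 CPM in STAM and rose by 2.02 ± 0.30 (SE) on the log2 scale (edgeR adjusted p = 0.000369). No chow library reached the STAM range in these 3 genes, and stellate cell and fibroblast markers overlapped between the groups, as given above. Tlr12, a receptor for microbial profilin, stood at 14.8, 11.2 and 14.9 CPM in chow and 32.1, 34.7 and 39.1 CPM in STAM and rose by 1.37 ± 0.18 (SE) on the log2 scale (edgeR adjusted p = 0.000144). Ifi27, an interferon-induced gene, stood at 202, 176 and 181 CPM in chow and 367, 348 and 339 CPM in STAM and rose by 0.91 ± 0.11 (SE) on the log2 scale (edgeR adjusted p = 7.29e-05).

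Nrg4, a growth factor known as a signal from brown fat to liver, stood at 5.35, 5.66 and 8.57 CPM in chow and 22.6, 20.2 and 21.8 CPM in STAM and rose by 1.73 ± 0.23 (SE) on the log2 scale (edgeR adjusted p = 0.000126). Nrg4 overlaps the gene Fbxo22 on the other strand, so its counts are uncertain. Malat1, a long nuclear RNA, stood at 1071, 799 and 1314 CPM in chow and 2008, 1800 and 1833 CPM in STAM and rose by 0.82 ± 0.15 (SE) on the log2 scale (edgeR adjusted p = 0.00243). Neither overlapped between the groups.

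On the lower side, Chrna4, a subunit of the nicotinic acetylcholine receptor (GRCm38 chr2:181018380-181043546), had 310 counts in all in the 3 chow libraries and 0 counts in the 3 STAM libraries. Its chow level was 18.7, 8.32 and 8.72 CPM, and against the limit that a count of 0 allows (3 counts over the group) STAM was at least 103-fold lower (edgeR adjusted p = 5.26e-06). Camk1d, a calcium-dependent kinase, stood at 82.8, 114 and 111 CPM in chow and 31.6, 35.5 and 21.1 CPM in STAM and fell by 1.80 ± 0.18 (SE) on the log2 scale (edgeR adjusted p = 6.06e-06). Echdc1, which removes faulty products of fat synthesis, stood at 58.6, 67.5 and 73.1 CPM in chow and 26.4, 31.9 and 26.3 CPM in STAM and fell by 1.23 ± 0.15 (SE) on the log2 scale (edgeR adjusted p = 5.45e-05). Neither of these last 2 genes overlapped between the groups.

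**Figure D5:**
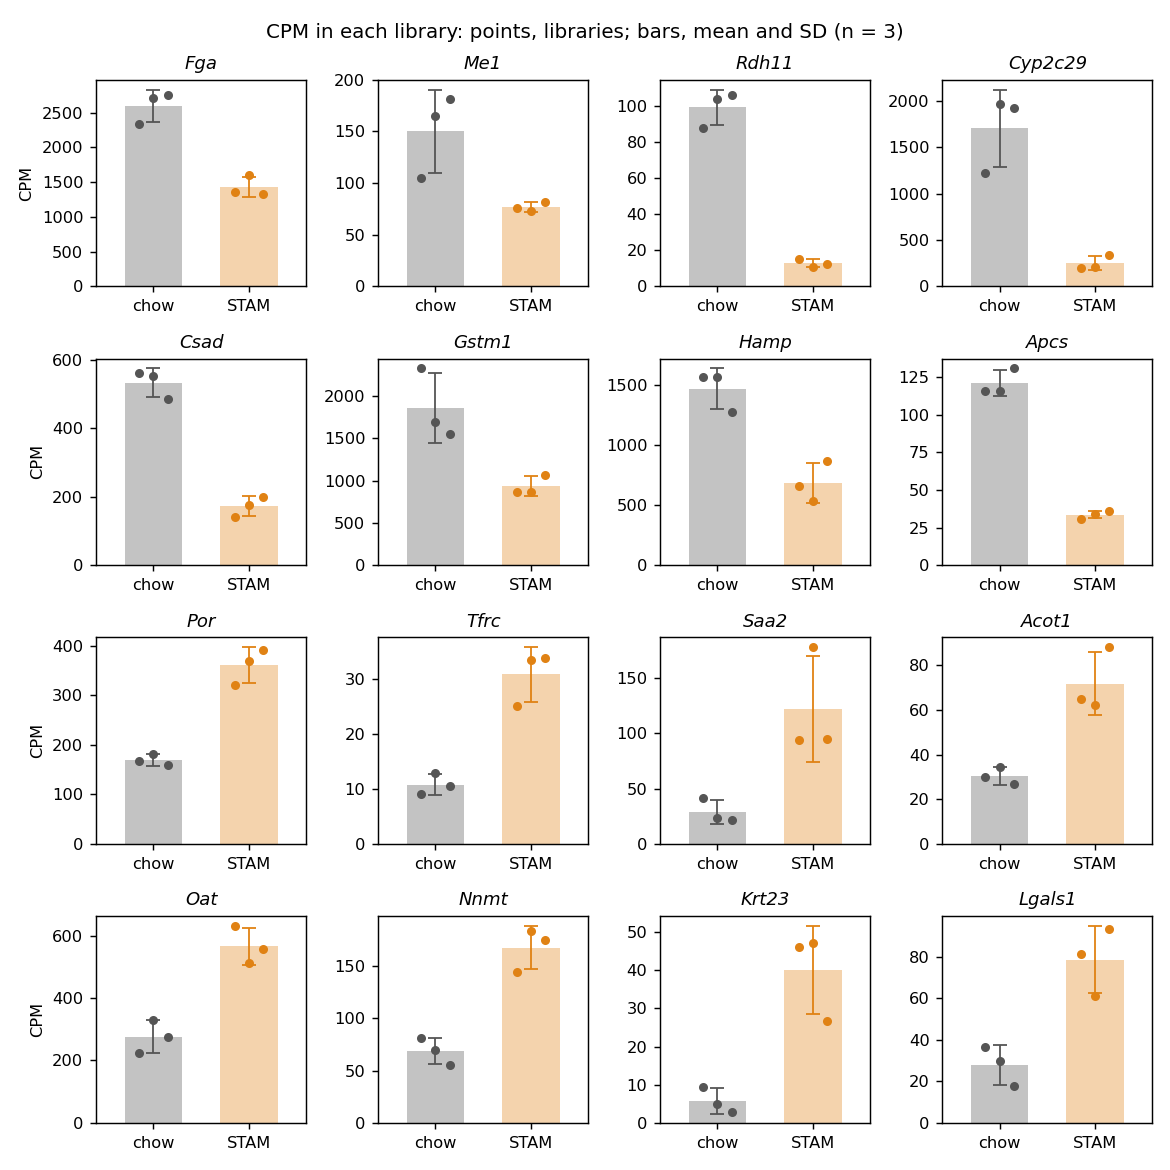
CPM of 16 of the genes described, 1 point per library, with bars at the mean and lines of 1 SD (n = 3), each axis from 0. From Fga to Apcs the STAM libraries lay below all chow libraries, and from Por to Lgals1 above them.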

How the data were processed

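Gene expression was measured in 9 RNA samples of mouse liver by QuantSeq 3′ mRNA sequencing. Per the submitters' processing notes, reads were aligned with STAR to GRCm38. The counting tool and its strand setting are among the steps not given in the sources used here. A table deposited by the authors held raw read counts per gene. Its fold change and p-value columns were not used. Gene positions and overlaps are from GENCODE M21 (GRCm38). The 7 ribosomal RNA entries were left out. All 9 samples were fitted by group in edgeR 4.0.16 (R 4.3.3) with filterByExpr, TMM scaling and the quasi-likelihood test, with Benjamini-Hochberg adjustment over 12660 genes, and only STAM against chow was read. The limit for a group at 0 is 3 counts over the group and covers counting error only. The test was tested on simulated counts.

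The genes and lists were chosen with earlier results of these data known. Genes named were those called with the largest changes, the highest levels or the smallest p (up to 4 in each direction of each list and 15 in none), plus a fixed set of well-known liver genes. A few genes that met the rule are not reported here. Alternatives were other scalings, no filter, DESeq2 1.42.0, limma-voom (limma 3.58.1), the 2 groups alone, a fold threshold and leaving out each library.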

Additional observations from a re-analysis of the deposited data

How the results depend on the processing

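The count of 499 called genes (247 higher, 252 lower) was 230 (121 and 109) when a change of at least 1 on the log2 scale was also required. It was 743 (373 and 370) without the filter on low counts, 729 (324 and 405) by limma-voom with sample weights, 641 (326 and 315) by DESeq2, 552 (347 and 205) with library totals, 497 (249 and 248) with DESeq2 size factors and 462 (221 and 241) with the 2 groups alone. Leaving out 1 library gave 291 to 724 genes in all, 140 to 350 higher and 151 to 374 lower, lowest without STAM replicate 1 and highest without chow replicate 7. Apart from the fold threshold and the fits with fewer samples, the cause of these shifts was not tested. No named gene called in the main fit or under a setting had opposite directions in the 2, and changes of direction in uncalled genes were not counted. Of the 202 named genes that were called, 133 kept the call under all of these settings other than the fold threshold. DESeq2 called 489 of the 499 in the same direction, and limma-voom 477. With 3 samples a group, counts of list members mostly rest on few genes: without STAM replicate 1, 36 of 112 such counts moved by over 1.5 times. No paired analysis was possible because the replicate numbers of the groups do not repeat.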
